A study of Mus musculus with 8 samples.

Results

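The transcripts of 10 circadian clock genes (Clock, Npas2, Arntl, Per2, Per3, Cry1, Cry2, Nr1d1, Nr1d2 and Dbp) were measured in the nucleus accumbens (NAc), the ventral striatal region that takes part in motivation and reward. They were chosen by gene name, with earlier results of these data known. Every probe carrying 1 of these names on the array was taken, whatever its value. This gave 13 probes for 10 genes, out of 55681 probes and 34741 named genes, with 2 probes each for Cry2, Nr1d2 and Dbp and 1 probe for each other gene. Each of the 13 probes cleared the background on each of the 8 arrays, so that no gene was lost to the filter on dim probes.

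All mice were adult males of the C3H/HeN strain, which carries a mutation that leads to degeneration of the retina. Mice of the maternal separation (MS) group were separated daily from their dams from postnatal day 2 to postnatal day 14, with unpredictable stress of the dam, whereas control litters were left undisturbed by this procedure. There were 4 control and 4 MS mice, each a separate animal on an array of its own, all weaned on postnatal day 21. In the mouse labels 3 of the 4 control mice share the first number 8 and 3 of the 4 MS mice share the first number 7. The labels do not say whether this marks a litter or a cage, and no first number occurs in both groups. All were trained in an operant task for sweetened milk under an inverted light cycle and were fasted before the brain was taken. The time of day of sampling is not given in the sources used here. RNA came from whole-tissue punches, in which fewer cells of a type and less RNA per cell cannot be told apart.

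The clock is a feedback loop of transcription that runs in nearly every cell. CLOCK, or its relative NPAS2, pairs with ARNTL (also called BMAL1) on E-box elements and switches on the Per and Cry genes, whose proteins return to the nucleus and repress the pair. The nuclear receptors NR1D1 and NR1D2 (REV-ERBs) repress Arntl through ROR elements, on which the ROR receptors act as activators, and DBP drives genes that carry D-boxes. In many tissues Arntl transcripts peak at a time of day opposite to those of Dbp and Nr1d1. NPAS2 was first known as a forebrain protein and is abundant in the striatum.

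The promoters of 3 genes are shown because they carry the elements that tie the loop together, namely the E-boxes, the D-boxes and the ROR element. Windows of 300 bases, from 250 bases before to 50 bases after the start of the gene, were read from RefSeq (build GRCm38.p6) for 9 of the 10 genes, all but Per2, and gave 12 windows. They were searched on both strands for the E-box (CACGTG), the E-prime box (CACGTT, which reads AACGTG on the other strand), the D-box (TTATGTAA, or the same with C for the T in its middle), the cAMP response element and the ROR element. The motifs found are in capitals, and positions count from the first base of the gene.
Cry1, chr10:85185005-85185304, minus strand: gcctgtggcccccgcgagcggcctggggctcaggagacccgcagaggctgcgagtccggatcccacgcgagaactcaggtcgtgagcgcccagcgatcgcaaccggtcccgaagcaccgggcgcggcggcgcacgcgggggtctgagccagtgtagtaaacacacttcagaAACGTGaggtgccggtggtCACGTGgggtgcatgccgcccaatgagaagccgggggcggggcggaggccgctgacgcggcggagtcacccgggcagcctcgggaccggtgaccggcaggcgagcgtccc
Per3, chr4:151044616-151044915, minus strand: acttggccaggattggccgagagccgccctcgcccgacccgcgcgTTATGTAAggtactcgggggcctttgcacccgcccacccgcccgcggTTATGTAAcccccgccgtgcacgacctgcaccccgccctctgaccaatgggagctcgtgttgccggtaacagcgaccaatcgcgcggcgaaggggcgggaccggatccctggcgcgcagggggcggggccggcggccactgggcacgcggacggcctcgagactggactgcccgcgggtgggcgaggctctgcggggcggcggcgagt
Arntl, chr7:113207261-113207560, plus strand: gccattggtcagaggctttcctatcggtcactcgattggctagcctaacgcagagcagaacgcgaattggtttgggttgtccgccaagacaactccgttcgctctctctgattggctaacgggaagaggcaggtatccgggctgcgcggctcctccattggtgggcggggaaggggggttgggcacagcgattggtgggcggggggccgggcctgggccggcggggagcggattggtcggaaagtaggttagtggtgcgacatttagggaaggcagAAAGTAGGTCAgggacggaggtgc
The Cry1 window held an E-prime box at -79 and an E-box at -60, the Per3 window held D-boxes at -205 and -158, and this Arntl window, which overlaps another Arntl window without a motif, held a ROR element at 27. An E-prime box was also found at -166 of Cry2 and at -28 of Nr1d1, so that 5 of the 9 genes held a motif. Over all 32851 windows, 7.15% held an E-box, 4.68% an E-prime box, 1.06% a D-box, 1.79% a cAMP response element and 0.384% a ROR element. The share of all genes holding any of these motifs was not computed, so the count of 5 has no background beside it. A match describes these letters only, and binding was not measured.

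The level of a gene is given as the log2 of its signal minus the log2 of the 75th percentile of the same array, so that 0 is the signal at that percentile. Differences are MS minus control on this log2 scale, with the standard error (SE) and 95% interval of a limma fit over 33111 probes and Benjamini-Hochberg adjustment over all of them. Levels of different genes come from different probes and are not set against each other. Where a gene had several probes, the one with the highest mean level stands for it.

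None of the 10 genes passed the adjusted threshold of 0.05, and their adjusted p in limma ran from 0.259 to 0.917. In this fit 0.00302% of all tested probes passed it, which is 1 probe of 33111, and the number depended on the processing. It was 375 in the deposited log2 table, 453 with normexp background correction and quantile normalization, and 504 with trend and robust moderation. With no filter on dim probes, or with the slide column as a block, it was 0. None of the clock genes tested passed in any of these settings. Nonetheless, 9 of the 10 differences were above 0, against 50.6% of all tested probes, and the median of the 10 was 0.25 against 0.002 for all tested probes. Nr1d1 alone was below 0. Because the genes were chosen with earlier results of these data known, these shares are a description and not a test of the set. Without adjustment, Npas2, Arntl, Per2 and Cry2 had a p under 0.05 in limma, all with higher values in MS mice. In all, 6.35% of tested probes were higher and 14.1% differed in either direction at this level. Npas2 was also the only gene of the 10 in which the mice of the groups did not overlap, as was true of 8.67% of all tested probes, and of 3.76% with MS higher. The count of 4 genes became 1 without control replicate 1, control replicate 4 or MS replicate 4, and 2 without MS replicate 1, without MS replicate 3 or with no filter on dim probes. It was 3, without Cry2, with the slide column as a block or without MS replicate 2. With normexp background correction and quantile normalization it was 5, Clock being added. In the deposited log2 table and with median scaling it stayed at 4, with Clock in place of Cry2.

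**Figure D1:**
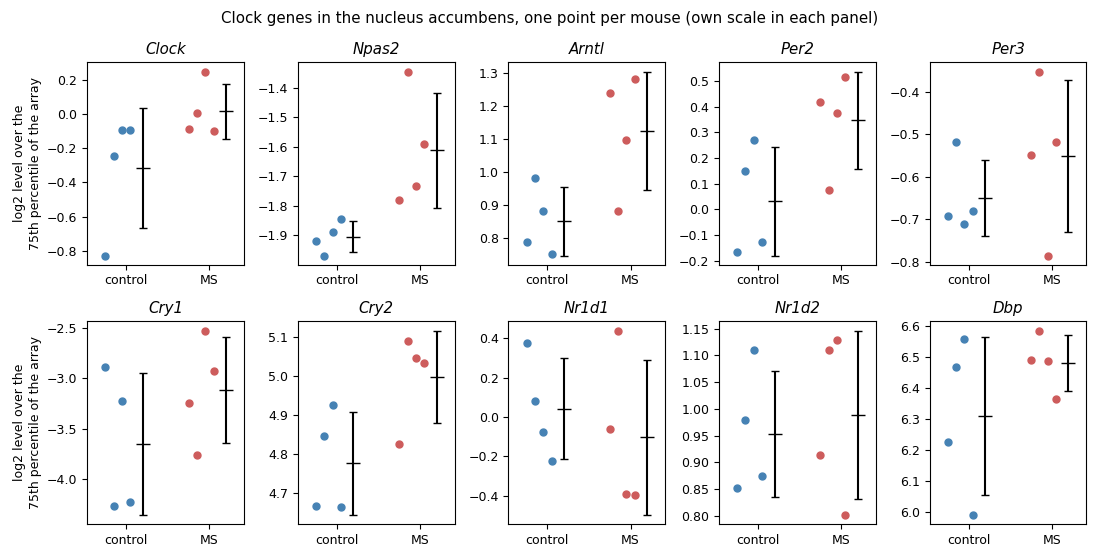
Level of each clock gene in each mouse, as log2 signal over the 75th percentile of the array, with control mice in blue and MS mice in red (n = 4 each). Bars give the mean and SD, each panel has its own scale, and Npas2 is the gene whose 4 MS mice all lie above the highest control.

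Of the activating arm, Npas2 and Arntl had the lowest p of the 10 genes, and Clock followed after Cry2 and Per2. Npas2, measured by a probe on chromosome 1 (39418941 to 39419000, build mm9), read -1.92, -1.97, -1.89 and -1.84 in control replicates 1 to 4 and -1.78, -1.35, -1.73 and -1.59 in MS replicates 1 to 4. The control mice lay close together, at -1.90 ± 0.05 (SD, n = 4), while the MS mice were more spread, at -1.61 ± 0.19 (SD, n = 4), with MS replicate 2 highest. The difference was 0.29 (SE 0.10, 95% interval 0.06 to 0.52), a ratio of 1.22, with an unadjusted p of 0.0187 and an adjusted p of 0.259 in limma.

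Arntl, the obligate partner of CLOCK and NPAS2, was measured on chromosome 7 (120457261 to 120457320, mm9). Its level was 0.79, 0.98, 0.88 and 0.75 in the control mice and 1.24, 0.88, 1.097 and 1.28 in the MS mice. MS replicates 1, 3 and 4 stood above every control, and MS replicate 2 lay within the control range. The difference was 0.27 (SE 0.10, 95% interval 0.04 to 0.51), a ratio of 1.21, with an unadjusted p of 0.0274 and an adjusted p of 0.295. Clock itself (chromosome 5, 76641377 to 76641436, mm9) read -0.83, -0.25, -0.09 and -0.09 in control mice and -0.09, 0.00, 0.25 and -0.10 in MS mice. Control replicate 1 was far below the other 7 mice, and the difference of 0.33 (SE 0.17, 95% interval -0.06 to 0.72, adjusted p 0.428) became 0.16 without it.

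Of the repressors, Per2 showed a difference of similar size to that of Arntl and in the same mice. The Per2 probe (chromosome 1, 93313046 to 93313105, mm9) read -0.16, 0.15, 0.27 and -0.13 in control mice and 0.42, 0.08, 0.38 and 0.52 in MS mice. As with Arntl, MS replicates 1, 3 and 4 were above every control and MS replicate 2 was not. The difference was 0.32 (SE 0.13, 95% interval 0.02 to 0.62), a ratio of 1.24, with an unadjusted p of 0.0412 and an adjusted p of 0.335. Per3 (chromosome 4, 150379256 to 150379315, mm9) read -0.69, -0.52, -0.71 and -0.68 in control mice and -0.55, -0.35, -0.78 and -0.52 in MS mice. The Per3 groups overlapped, MS replicate 3 was the lowest of the 8 mice, and the difference was 0.10 (SE 0.10, 95% interval -0.13 to 0.33, adjusted p 0.709). It was 0.03 without MS replicate 2 and 0.18 without MS replicate 3.

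The cryptochromes, the partners of the PER proteins in repression, differed in how precisely they could be measured. For Cry2 the brighter probe (chromosome 2, 92243807 to 92243866, mm9) read 4.67, 4.85, 4.93 and 4.67 in control mice and 4.83, 5.09, 5.05 and 5.03 in MS mice. MS replicate 1 lay within the control range and the 3 other MS mice above it. The difference was 0.22 (SE 0.09, 95% interval 0.01 to 0.43), a ratio of 1.17, with an unadjusted p of 0.0410 and an adjusted p of 0.334. The second Cry2 probe (92251417 to 92251476) gave 0.17 (SE 0.10, adjusted p 0.519), and the 2 probes followed each other over the 8 mice with r = 0.66. Cry1 (chromosome 10, 84594731 to 84594790, mm9) was dim, with processed signals of 16.5 to 65.8. It read -2.89, -4.27, -3.23 and -4.23 in control mice and -3.25, -3.76, -2.52 and -2.92 in MS mice. The difference was 0.54, with the largest SE of the 10 (SE 0.37, 95% interval -0.31 to 1.39, adjusted p 0.563), and the spread of Cry1 within groups was above that of 97.5% of tested probes. The value depended on the processing and on single mice, at 0.20 with normexp background correction, 0.29 in the deposited log2 table, and from 0.33 to 0.79 with 1 mouse left out (lowest without control replicate 2, highest without control replicate 1).

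The REV-ERB receptors had differences whose intervals include 0, as had Clock, Per3, Cry1 and Dbp. Nr1d1 was measured by a probe whose 60 bases cover 503 bases of chromosome 11 (98630526 to 98631028, mm9), so that it crosses a splice junction and reads spliced transcript. It is the following sequence, printed because this is the 1 probe of the 13 that does so.
Nr1d1 probe: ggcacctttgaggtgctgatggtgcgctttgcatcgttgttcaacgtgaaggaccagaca
Nr1d1 read 0.38, 0.08, -0.07 and -0.22 in control mice and -0.06, 0.44, -0.39 and -0.40 in MS mice. MS replicate 2 was the highest of all mice and MS replicates 3 and 4 were the lowest. The difference was -0.14 (SE 0.20, 95% interval -0.61 to 0.32, adjusted p 0.810) and ran from -0.32 without MS replicate 2 to -0.03 without control replicate 1, with -0.05 without MS replicate 3 and -0.04 without MS replicate 4. The brighter Nr1d2 probe (chromosome 14, 19037253 to 19037312, mm9) ranged from 0.85 to 1.11 in control mice and from 0.80 to 1.13 in MS mice, so that the MS range enclosed the control range. Its difference was 0.04 (SE 0.10, 95% interval -0.19 to 0.26, adjusted p 0.917), and the second probe (19036568 to 19036627) gave 0.12 (SE 0.14).

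Dbp, the output factor that acts on D-boxes, was measured by a pair of neighbouring probes on chromosome 7 (52965461 to 52965520 and 52965322 to 52965381, mm9) that followed each other closely over mice (r = 0.95). The brighter probe read 6.22, 6.47, 6.56 and 5.99 in control mice and 6.49, 6.59, 6.49 and 6.36 in MS mice. Control replicate 4 was the lowest mouse, and 3 of the 4 MS mice lay within the control range. The difference was 0.17 (SE 0.13, 95% interval -0.12 to 0.46, adjusted p 0.594) by this probe and 0.19 (SE 0.12, adjusted p 0.506) by the other, and the first became 0.06 without control replicate 4.

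**Figure D2:**
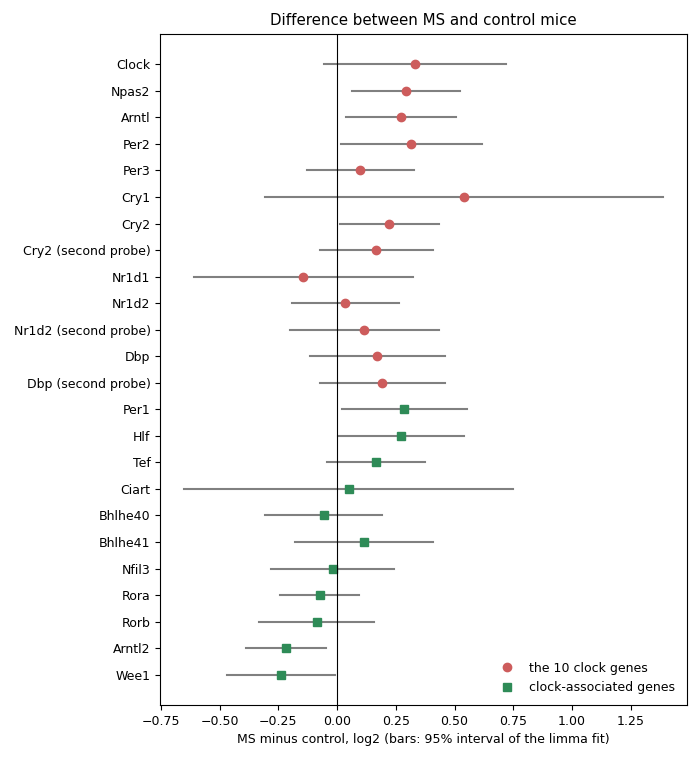
Difference between MS and control mice (log2, points) with 95% intervals of the limma fit (bars) for the 13 probes of the 10 clock genes (circles) and for 11 clock-associated genes (squares). The intervals of Npas2, Arntl, Per2, the brighter Cry2 probe, Per1 and Hlf lie above 0, those of Arntl2 and Wee1 lie below 0, and that of Cry1 is the widest.

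The remaining genes of the pathway were taken from a list of clock-associated genes, of which 25 are reported, all on the array and tested. None of the 25 passed the adjusted threshold in limma, 16 were above 0 and 9 below, and their median difference was 0.05. At an unadjusted p under 0.05 there were 2 higher (Per1 and Hlf) and 2 lower (Arntl2 and Wee1), beside 6.35% and 7.71% of all tested probes. The groups did not overlap for 1 gene with MS higher (Hlf) and for 1 with MS lower (Arntl2), beside 3.76% and 4.91% of all tested probes.

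Per1, the third period gene, read 3.84, 4.13, 4.04 and 3.64 in control mice and 4.12, 4.35, 4.12 and 4.20 in MS mice. It differed by 0.29 (SE 0.12, unadjusted p 0.0387, adjusted p 0.327), with 2 MS mice above every control. Of the other D-box factors of the family of Dbp, Hlf read 2.86, 3.04, 3.08 and 2.56 in control mice and 3.10, 3.27, 3.16 and 3.11 in MS mice. These Hlf values did not overlap, and the difference was 0.27 (SE 0.12, unadjusted p 0.0469, adjusted p 0.349), or 0.17 without control replicate 4. Tef differed by 0.17 (SE 0.09, adjusted p 0.464), or 0.09 without control replicate 4. Nfil3, the repressor that competes for D-boxes, differed by -0.02 (SE 0.11).

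The ROR receptors act on the same elements as the REV-ERBs. Rora differed by -0.07 (SE 0.07) and Rorb by -0.09 (SE 0.11), and a second Rora probe gave 0.19 (unadjusted p 0.0352, adjusted p 0.318), opposite in sign to the first.

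Among other regulators, Arntl2, a relative of Arntl, read 0.41, 0.56, 0.49 and 0.58 in control mice and 0.39, 0.34, 0.27 and 0.18 in MS mice. The groups did not overlap in this probe, and the difference was -0.22 (SE 0.07, unadjusted p 0.0190, adjusted p 0.261), opposite in sign to that of Arntl. Another tested Arntl2 probe, in which the groups overlapped, gave -0.25 (SE 0.21, unadjusted p 0.269 in limma). The r of these probes over the 8 mice was 0.48. Wee1, a cell cycle kinase under clock control, differed by -0.24 (SE 0.10, unadjusted p 0.0437, adjusted p 0.341). The E-box repressors Bhlhe40 and Bhlhe41 differed by -0.06 (SE 0.11) and 0.12 (SE 0.13), and the value of Bhlhe41 ran from 0.05 without MS replicate 1 to 0.24 without MS replicate 3. Ciart, a repressor of the CLOCK and ARNTL pair, differed by 0.05 (SE 0.31), with a spread within groups above that of 95.5% of tested probes.

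**Figure D3:**
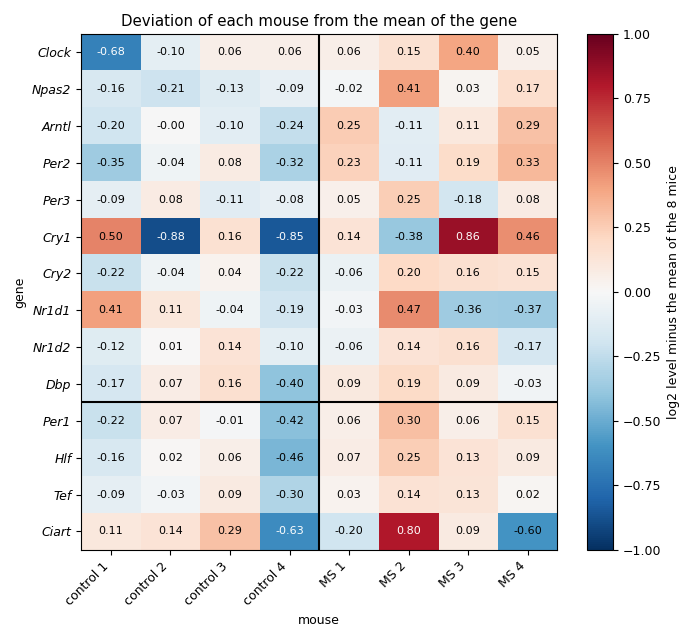
Level of each gene in each mouse minus the mean of that gene over the 8 mice (log2), for the 10 clock genes above the line and 4 clock-associated genes below it. Arntl and Per2 share their high mice (MS 1, 3 and 4). Control 4 is lowest for Dbp, Per1, Hlf and Tef, and also for Arntl, Cry2 and Ciart.

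The genes of the loop were also compared with each other over the 8 mice, in 45 pairs, with exact two-sided permutation tests over 40320 pairings. The pairings ran over all 8 mice whatever the group, so that a group difference shared by both genes can also lower these p. No pair passed after adjustment, for Pearson or for Spearman correlation, and 4 pairs had an unadjusted Pearson p under 0.05. The closest pair was Per2 and Arntl, with r = 0.92 (exact permutation p = 0.0022, adjusted p = 0.0982) and rho = 0.95 (exact permutation p = 0.0011, adjusted p = 0.0513). Its r was 0.85 once the group means were taken out and 0.88 without the 2 mice farthest from the median of Per2. Nr1d1 had r below 0 against 5 of the 9 other genes and above 0 against 4, the highest being Per3 (r = 0.46). Against the genes of the closest pair it gave r = -0.61 for Per2 (exact permutation p = 0.115, adjusted p = 0.528) and r = -0.53 for Arntl (exact permutation p = 0.176, adjusted p = 0.567). Against Clock r was -0.58 and rho -0.17, and r was 0.25 without the 2 mice farthest from the median of Clock. Arntl and Dbp, whose transcripts peak at opposite times in many tissues, gave r = 0.42 (exact permutation p = 0.307, adjusted p = 0.628). With the group means out this r was 0.14. Dbp was closest to Cry2 (r = 0.75, exact permutation p = 0.0250, adjusted p = 0.478), but r was 0.06 without the 2 mice farthest from the median of Cry2 and therefore rested on them. Of the 45 pairs, 37 had r above 0, and 26 had it once the group means were taken out. With the group means out, Cry2 and Dbp went to 0.68, Cry2 and Npas2 from 0.72 to 0.38, and Cry2 and Clock from 0.67 to 0.45. Arntl and Npas2 went from 0.24 to -0.72. The pairs share their arrays and their scaling.

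**Figure D4:**
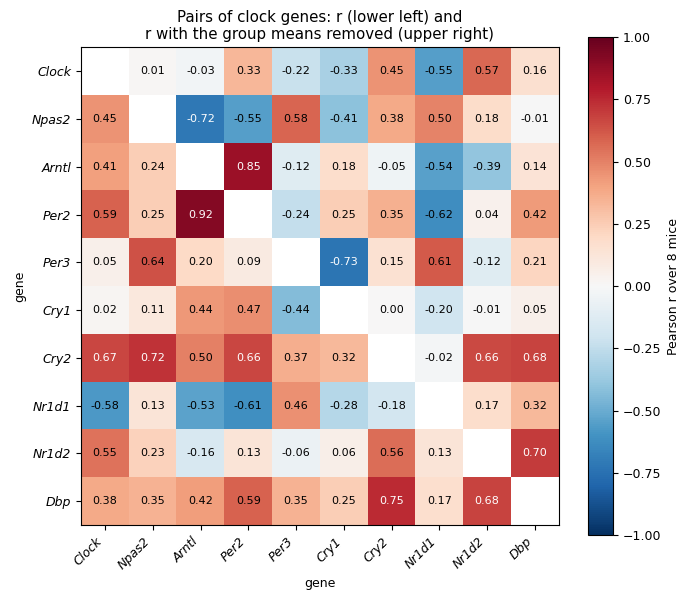
Pearson correlation over the 8 mice for each pair of clock genes (lower left) and the same with the group means taken out (upper right). Per2 and Arntl have the highest value on both sides (0.92 and 0.85). Nr1d1 is negative on both sides against Clock, Arntl, Per2, Cry1 and Cry2, and positive on both against the other genes.

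Some other properties of the samples moved with the groups and are given beside these results. The 11 tested markers of medium spiny neurons, the main cells of the NAc, were all above 0 in MS mice with a median difference of 0.28, and none of them passed the test. Their mean deviation ran from -0.53 to 0.07 in control mice, lowest in control replicate 4, and from -0.04 to 0.28 in MS mice. Of 8 pallidal neuron markers 7 were below 0, with a median of -1.21, as were all 7 tested hypothalamic markers, of which 1 passed the test. Also below 0 were 5 of 6 astrocyte markers, all 5 oligodendrocyte markers (median -0.13) and all 5 microglia markers (median -0.17). The mean deviations of the groups did not overlap for pallidal, hypothalamic and astrocyte markers. They overlapped for oligodendrocytes (-0.18 to 0.33 in control and -0.22 to 0.13 in MS mice) and for microglia (-0.09 to 0.26 and -0.21 to 0.07). Of 4 vessel markers 2 were above and 2 below 0, and of 2 tested cortical excitatory markers 1 was above and 1 below. Control replicate 4 also had 69.7% of its probes well above background, against 57.3% to 61.2% on the other arrays. The part of cell makeup in the clock gene differences was not tested. All arrays were on 1 slide with both groups in each of its rows, and 8 of the 10 clock genes were above 0 within both rows. Within the rows Npas2 differed by 0.38 and 0.20, Arntl by 0.18 and 0.37, Per2 by 0.26 and 0.37, and Cry2 by 0.20 and 0.24. Each of the 4 slide columns held 1 control and 1 MS mouse. Within columns 1 to 4 Npas2 differed by 0.19, 0.11, 0.38 and 0.50, Arntl by 0.31, 0.35, 0.30 and 0.13, and Per2 by 0.54, 0.15, 0.37 and 0.20. These 3 genes were above 0 in every column, which describes the same 8 arrays that gave their low p and adds no separate support. The share of all tested probes above 0 in both rows or in every column was not computed. Cry2 differed by 0.38, -0.10, 0.19 and 0.42, and with the column as a block its unadjusted p in limma was 0.0982.

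**Figure D5:**
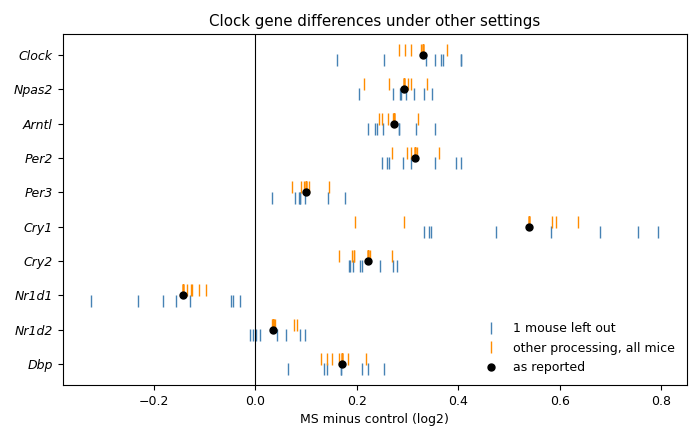
Difference between MS and control mice (log2) for each clock gene as reported (black points), with 1 mouse left out (blue marks) and with other processing of all mice (orange marks). The marks stay above 0 for 8 genes and below 0 for Nr1d1, and those of Nr1d2 lie on both sides of 0. Several orange marks fall on the reported value, because those settings leave the difference itself as it is.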

How the data were processed

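Cy3-labelled cRNA from 40 ng of total RNA of 8 mice was hybridised to Agilent 1-colour arrays. For each spot the authors deposited linear intensity values from Agilent Feature Extraction 10.10.1.1, with background-subtracted processed signals. A further deposited table holds log2 levels of 31261 probes, with a median of 8.01 in every column, which followed the log2 mean signal of each array and served as an alternative. Its direction is that of the levels. Its normalization is not given in the sources used here. The submitters' processing notes name limma, and the headers give build mm9.

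Control spots and outlier-flagged spots (122 to 189 per array) were left out, and each array was scaled by its own 75th percentile before taking log2. No probe was saturated. A probe was tested where 4 or more of the 8 arrays read it well above background. The test was limma 3.58.1 in R 4.3.3, by lmFit and eBayes with Benjamini-Hochberg adjustment, after tests on simulated data. The number of arrays limits the precision. Correlations used scipy 1.17.1. Alternatives changed background correction, values, scaling, filters, flags, variance model, slide blocks, probe choice and mice.

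The 10 genes and all lists were chosen with earlier results of these data known. All 10 genes were named, 9 associated genes always, and others at an unadjusted p under 0.05. Likeness was ranked against Dbp and Arntl, naming the 5 closest genes to each.
Of the associated list, 1 gene is not reported here, and the counts of that list leave it out.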

Additional observations from a re-analysis of the deposited data

Results flagged for a closer look

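Per3 in the control group had 1 mouse far from the others. Control replicate 2 read -0.52 and the 3 other controls -0.69, -0.71 and -0.68, so that its gap to the nearest control was 0.843 of the range of the group. Of the 42 groups of values examined this way, 1 stood out, and chance gives about 1 in 20.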

How the results depend on the processing

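No clock gene passed the adjusted threshold under any alternative. Of 192 combinations of gene and alternative, 190 kept the direction. Many of these could not change it. Other filters on dim probes, trend and robust moderation and the slide blocks leave the difference itself as it is. Keeping flagged spots left it the same for these genes, and median scaling moves all genes by the same amount. The lowest adjusted p was 0.129, for Npas2, whose range was 0.129 to 0.517 and whose unadjusted p in limma was under 0.05 in all 19. That lowest value came from the fit with the first number of the mouse label as a random block, and the next lowest was 0.171, in the deposited table. Leaving out 1 mouse at a time, Nr1d2 ran from -0.0111 to 0.0974, Bhlhe40 from -0.119 to 0.0188, Ciart from -0.211 to 0.256, Nfil3 from -0.106 to 0.0532 and Rorb from -0.151 to 0.00551. Nfil3 was also 0.0368 in the deposited log2 table and 0.0284 with median scaling, and the cause was not tested. None of the 25 reported clock-associated genes passed either, under any alternative. In the random block fit the correlation within labels was -0.11. The SE of Npas2 was 0.089 in this fit, against 0.101 in the fit as reported. Its low adjusted p thus came with a smaller SE and adds no support. The first number is shared by 3 of 4 mice in each group, and its meaning is not stated. Over all probes, calls went from 0 to 504 across settings. Cry1, measured at low signal, was 0.20 with normexp. By replicate number no pairing of mice exists, because the numbers follow accession order and the labels share none between the groups. The slide columns, which each held 1 mouse of each group, were fitted as a block, and no clock gene passed (lowest adjusted p 0.309, for Arntl).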

Other observations

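Lists of activity and hormone response genes gave values beside those of the clock. Of 8 immediate early genes, 6 were above 0 in MS mice, with a median difference of 0.34 and none past the test. Their mean deviation ran from -0.33 to 0.22 in control mice and from -0.02 to 0.41 in MS mice, so that the groups overlapped. Of 8 glucocorticoid response genes, 4 were above 0 and 4 below, with a median of 0.03.

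Among probes with a usual gene symbol, those most like Dbp over the 8 arrays were Tbc1d2b, Cox8b, Erf, Fam78a and Chst1, at ranks 1, 3, 4, 5 and 7 of all probes, with r from 0.98 to 0.96. The other D-box factors stood high in the same order of 33110 probes, Tef at rank 19 and Hlf at rank 22 (r = 0.94 for both), and Per1 was at rank 129 (r = 0.88). Without control replicate 4 these values were 0.83 for Tef, 0.81 for Hlf and 0.69 for Per1, and without the 2 mice farthest from the median of Dbp they were 0.62, 0.45 and 0.14. The genes most like Arntl were Btbd8, Wdr78, Crem, Sik2 and Arpp21, with r from 0.98 to 0.96, and Per2 was at rank 46. These are descriptions over 8 arrays that share their scaling.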
